A study of Arabidopsis thaliana with 12 samples.

Results

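A set of genes selected under the heading of carbon starvation and amino acid breakdown was followed across 12 arrays of Arabidopsis thaliana rosette leaves. The set holds 6 probe sets of the 22746 tested. MGL, AT5G38710, AT3G15450 and AT3G15630 were found by symbol in the probe-gene table, each with 1 probe set. The other 2 were taken by their row, and the selection lists them as ASN1 (DIN6) and DIN10. The probe-gene table used here leaves both rows unnamed, so they are called the ASN1-listed and the DIN10-listed row, no role is given to them and nothing below rests on those names. The members were chosen by their signals on these same arrays, with the differences between the lines and Col-0 already known. Their levels and differences are therefore a description, and where limma calls on them are counted below, the counts describe the fit and are no test of the members.

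When sugars fall, as in extended darkness, leaf cells turn to protein and amino acids as fuel. The SnRK1 kinase and bZIP transcription factors turn up genes for amino acid breakdown and for nitrogen storage as asparagine, and sugar feeding turns the same genes down. Methionine gamma-lyase, encoded by MGL, splits methionine into methanethiol, 2-oxobutyrate and ammonia. AT5G38710 encodes a proline dehydrogenase, the mitochondrial enzyme of the first step of proline breakdown. AT3G15450 encodes a protein related to aluminium-induced proteins and is known to be induced by darkness and repressed by sugar. No role is given here for AT3G15630.

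The 4 groups of 3 arrays each were Col-0, the wild type, OE1 and OE2, a pair of lines overexpressing TaFLS, a flavonol synthase gene, and fls1-3, whose genotype the labels give by that name alone. Each overexpression group is a single line. All samples were rosette leaves of 6-week-old seedlings from soil at 22 °C and 60% relative humidity with 16 h of light. The labels note lowered leaf and guard cell flavonols for OE1 and raised ones for both OE2 and fls1-3, so the overexpression lines carry opposite notes and the groups are named only by their labels. FLS1 has no named probe set in the table, and neither fls1-3 nor the transgene was checked on the arrays. The promoter of the transgene, the number of plants per sample and the time of harvest are not given in the sources used here, and the titles call the 3 arrays of a group biological replicates. Whole leaves were measured, so fewer cells of a type and less RNA per cell cannot be told apart.

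Values are log2 MAS5 signals, with array medians between 7.09 and 7.55. Signals near or below those medians scatter more than bright ones: the median within-group SD was 1.24 for probe sets with a mean of at most 6, 0.388 between 6 and 8 and 0.255 above 10. The leaf genes RCA and LHCB4.1, for Rubisco activase and a light-harvesting protein, averaged between 14.44 and 14.999 in every group. The root markers LBD16 and EXPA7 averaged at most 5.04, and AT5G07230, a gene of the anther, at most 4.19, with 0 on a Col-0 array. The summed signal of the 2 leaf genes overlapped between all groups, and GI, the 1 clock gene named in the table, averaged between 8.28 and 8.50 in the 4 groups. In the first GAPDH set of the RNA controls, the 3' signal exceeded the 5' signal by 2.0998 to 2.44 log2 units on the OE1 arrays, against 0.86 to 1.65 on the others. The second GAPDH, actin and ubiquitin control sets were also highest in OE1 without overlap. In the first actin set OE1 overlapped Col-0, and in the first ubiquitin set it overlapped OE2. In the second ubiquitin set fls1-3 was lowest, at 0.204 to 0.29 against at least 0.437 elsewhere.

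Against Col-0, all 6 members were higher in OE2 and in fls1-3, and 5 of 6 were higher in OE1. The median log2 difference of the members was 2.07 in OE2, 1.67 in fls1-3 and 0.94 in OE1, beside medians over all 22746 probe sets of 0.083, -0.0039 and 0.11. In OE2 each member had all 3 arrays above all 3 Col-0 arrays. In fls1-3 this held for 5 members and in OE1 also for 5. The same non-overlap upward was seen for 10.6%, 6.75% and 8.97% of all probe sets in OE2, fls1-3 and OE1. In the limma fit across all probe sets, all 6 members lay past an adjusted p of 0.05 upward in OE2, as did 0.514% of all probe sets. In fls1-3 AT5G38710, AT3G15450, AT3G15630 and the DIN10-listed row did, beside 0.809% of all. In OE1 no member did, and no probe set at all (0%), while 10.7% of probe sets had an unadjusted limma p under 0.05. Of the 6 in OE2, AT3G15450, AT3G15630 and the DIN10-listed row passed under every alternative tried, while 3 members remained without Col-0 replicate 2, without OE1 replicate 3 or without any 1 of the OE2 arrays. Because those comparisons chose the members, nothing is read from these counts. All 3 comparisons share the Col-0 arrays.

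**Figure D1:**
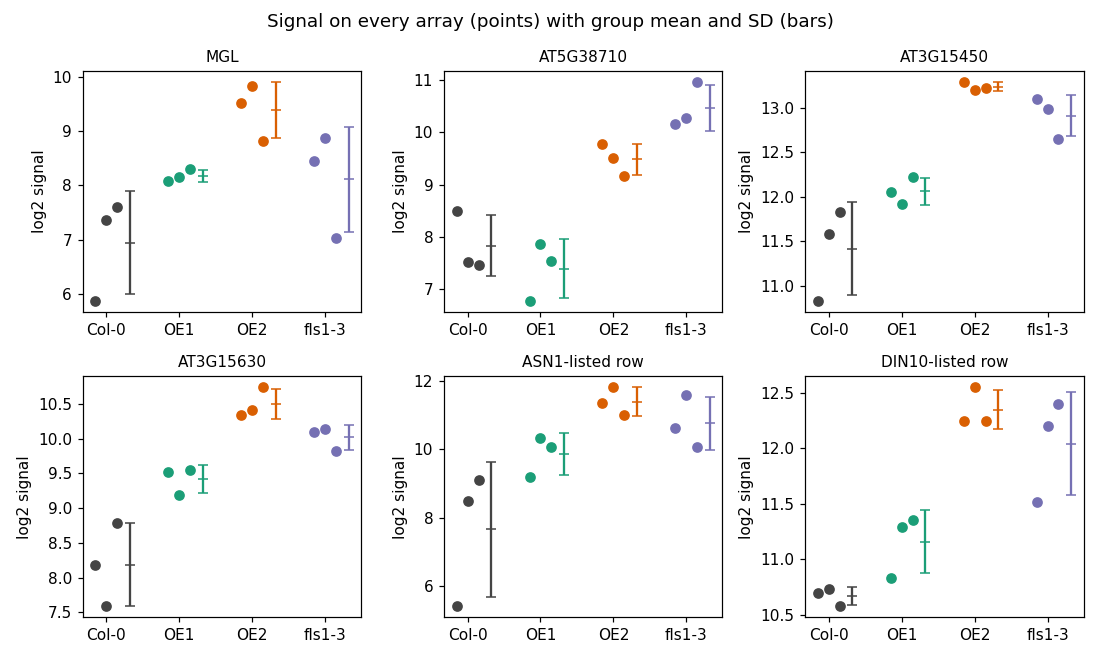
Log2 signal of the 6 members on each of the 12 arrays by group, with points for arrays in replicate order and bars for the group mean and SD (n = 3); each panel has its own vertical axis. The 3 OE2 arrays lie above all Col-0 and OE1 arrays in every panel, while AT5G38710 is highest in fls1-3 and no higher in OE1 than in Col-0.

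The enzymes of amino acid breakdown were read first. MGL had log2 signals of 5.87, 7.37 and 7.61 on the Col-0 arrays, replicates 1 to 3, and 8.09, 8.15 and 8.31 on the OE1 arrays. Its OE2 signals were 9.52, 9.84 and 8.83, and its fls1-3 signals were 8.44, 8.87 and 7.02. The 3 OE2 arrays were the highest of the 12 except that fls1-3 replicate 2 exceeded OE2 replicate 3, and fls1-3 replicate 3 fell within the Col-0 range. The level in OE2 was 2.45 ± 0.50 log2 units above Col-0 (SE, n = 3 against 3; 5.46-fold), while OE1 stood 1.23 ± 0.50 and fls1-3 1.16 ± 0.50 above it. When the lowest array, Col-0 replicate 1, was left out, these differences were 1.91, 0.69 and 0.62. Without fls1-3 replicate 3 the fls1-3 difference was 1.71. In order of level MGL ran from Col-0 through fls1-3 and OE1 to OE2, with overlapping ranges of Col-0 and fls1-3 and of fls1-3 and OE1.

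The proline dehydrogenase gene AT5G38710 had a different order. Its signals were 8.50, 7.52 and 7.45 in Col-0 and 6.77, 7.86 and 7.54 in OE1. In OE2 they were 9.77, 9.51 and 9.17, and in fls1-3 10.16, 10.29 and 10.97. The fls1-3 arrays were the 3 highest and the OE2 arrays the next 3, with no overlap between those groups, while Col-0 and OE1 overlapped. The difference from Col-0 was 2.65 ± 0.34 in fls1-3 (6.265-fold), 1.66 ± 0.34 in OE2 (3.16-fold) and -0.44 ± 0.34 in OE1. Of the 6 members it was the 1 with a mean below Col-0 in OE1, and the 1 with its highest mean in fls1-3. The OE1 value was -0.10 without Col-0 replicate 1.

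The other named members, AT3G15450 and AT3G15630, lie on chromosome 3 with 21 protein-coding genes between them in the assembly TAIR10.1. AT3G15450 had signals of 10.82, 11.58 and 11.83 in Col-0, 12.05, 11.92 and 12.22 in OE1, 13.30, 13.20 and 13.22 in OE2 and 13.10, 12.99 and 12.65 in fls1-3. No 2 groups overlapped, although the highest fls1-3 signal, 13.10, was close to the lowest OE2 signal, 13.20, and OE1 and Col-0 were parted by 0.088. Its difference from Col-0 was 1.83 ± 0.23 in OE2 (3.55-fold), 1.502 ± 0.23 in fls1-3 and 0.65 ± 0.23 in OE1, where it was 0.35 without Col-0 replicate 1.

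AT3G15630 had signals of 8.18, 7.59 and 8.79 in Col-0, 9.51, 9.19 and 9.55 in OE1, 10.35, 10.41 and 10.74 in OE2 and 10.09, 10.14 and 9.82 in fls1-3. Its groups did not overlap either, and they ran in the same order as those of AT3G15450, from Col-0 through OE1 and fls1-3 to OE2. The difference from Col-0 was 2.31 ± 0.25 in OE2 (4.97-fold), 1.83 ± 0.25 in fls1-3 (3.56-fold) and 1.24 ± 0.25 in OE1. The OE1 difference ran from 0.94 to 1.54 as single arrays were left out.

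The ASN1-listed row spanned the widest range, from 5.42 on Col-0 replicate 1 to 11.82 on OE2 replicate 2. Its other Col-0 arrays read 8.49 and 9.10. The OE1 arrays read 9.18, 10.33 and 10.08, the OE2 arrays 11.36, 11.82 and 10.99, and the fls1-3 arrays 10.63, 11.58 and 10.06. All 9 arrays of the lines were above all 3 Col-0 arrays, OE1 by as little as 0.079, and the ranges of OE1 and fls1-3 and of fls1-3 and OE2 overlapped. The difference from Col-0 was 3.72 ± 0.75 in OE2 (13.2-fold), 3.09 ± 0.75 in fls1-3 and 2.19 ± 0.75 in OE1, with a Col-0 SD of 1.98. These sizes rest in part on Col-0 replicate 1, without which they were 2.59, 1.96 and 1.07.

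The DIN10-listed row was the steadiest in Col-0, with signals of 10.69, 10.73 and 10.57. It read 10.83, 11.29 and 11.35 in OE1, 12.24, 12.55 and 12.25 in OE2 and 11.52, 12.20 and 12.40 in fls1-3. OE2 and fls1-3 overlapped, and both lay above OE1, which lay above Col-0. The difference from Col-0 was 1.68 ± 0.22 in OE2 (3.21-fold), 1.38 ± 0.22 in fls1-3 and 0.49 ± 0.22 in OE1.

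**Figure D2:**
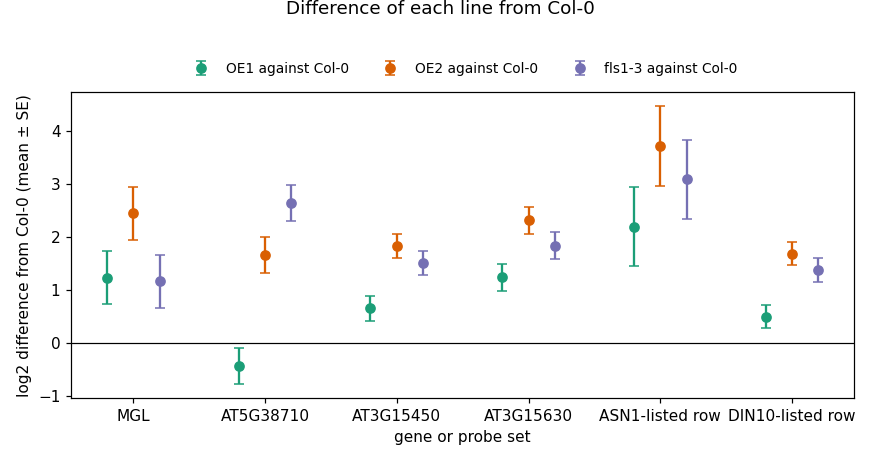
Log2 difference from Col-0 of each member in OE1, OE2 and fls1-3, as the limma estimate with its SE (n = 3 against 3). OE2 has the largest difference for 5 members and fls1-3 for AT5G38710, at 2.65, where OE1 stands at -0.44. Of all probe sets, 24.7% have their highest group mean in OE2.

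Set beside each other, the lines differed in the members' mean signals, though few of these differences passed in limma. All 6 members were higher in OE2 than in OE1 with no overlap, by 1.08 to 2.096 log2 units, beside 8.87% of all probe sets with such a separation. The narrowest was AT3G15630, at 1.08 ± 0.25, and the widest AT5G38710, at 2.096 ± 0.34. Between fls1-3 and OE1, 4 members were higher in fls1-3 without overlap, beside 8.89% of all probe sets. These were AT5G38710, AT3G15450, AT3G15630 and the DIN10-listed row, with differences of 3.085, 0.85, 0.60 and 0.88, while MGL stood at -0.070 ± 0.50. Between fls1-3 and OE2, AT5G38710 was higher in fls1-3 by 0.99 ± 0.34 without overlap (5.63% of all probe sets), and AT3G15450 and AT3G15630 were lower, by -0.32 and -0.48, without overlap (6.96%). The ranges of the other 3 members overlapped. In limma no member passed the adjusted threshold for OE2 against OE1 or for fls1-3 against OE2. For fls1-3 against OE1 only AT5G38710 did. Of all probe sets, 0.0264%, 0.022% and 0.554% passed in these comparisons, in that order. The order Col-0, OE1, fls1-3, OE2 was that of 4 members and of 4.88% of all probe sets. All comparisons with OE1, also that of OE1 against Col-0, carry the higher 3' to 5' differences of several of its RNA controls. The part of those differences in the members' values was not tested.

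The members were then compared within groups, where genotype is held fixed. As each array's deviation from its group mean, MGL and the ASN1-listed row went together across the 12 arrays (Pearson r = 0.85, Spearman rho = 0.87), and r was 0.71 without the arrays farthest on MGL, Col-0 replicate 1 and fls1-3 replicate 3. MGL and AT3G15450 had r = 0.82 and rho = 0.70, but r fell to 0.12 without those 2 arrays. The proline dehydrogenase gene ran the other way to MGL, at r = -0.57 and rho = -0.40, and without the same arrays r turned to 0.41. On both of those arrays MGL, AT3G15450 and the ASN1-listed row lay below their group means and AT5G38710 above its own. Col-0 replicate 1 and fls1-3 replicate 3 also had the 2 lowest array medians of the 12, 7.09 and 7.12. The part of those medians in these correlations was not tested. Pairs without MGL also reached such sizes. AT3G15450 and the ASN1-listed row had r = 0.84 and rho = 0.61, but r = -0.035 without the same 2 arrays. AT5G38710 and AT3G15450 had r = -0.71 and rho = -0.65, and r = -0.11 without those arrays. AT5G38710 and the DIN10-listed row had r = 0.58 and rho = 0.545, and r = 0.56 without them. AT3G15630 had r between -0.34 and 0.33 with each other member. All 15 pairs were computed, over 12 arrays whose deviations within a group sum to zero, and they are given as a description.

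**Figure D3:**
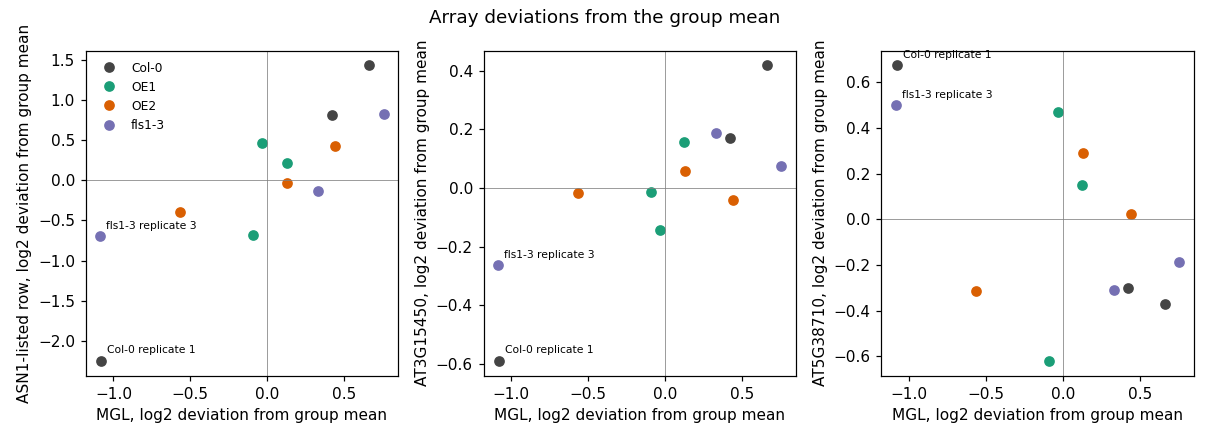
Deviation of each of the 12 arrays from its group mean (log2), for MGL on the horizontal axis against the ASN1-listed row, AT3G15450 and AT5G38710, with points coloured by group. Col-0 replicate 1 and fls1-3 replicate 3 lie far to the left in each panel, low for the ASN1-listed row and AT3G15450 and high for AT5G38710.

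Other genes of the same pathways, listed by their known roles but with earlier results of these arrays known, were read in the same fit. Of 202 such genes in 9 lists, 38 have a probe set that the table names, and members were left out. In OE2, 3 of the 38 rose and none fell against Col-0, beside 0.514% of all probe sets that rose and 0.989% called in either direction. In fls1-3 1 rose and 1 fell, beside 0.809% rising and 0.387% falling, or 1.2% in all. In OE1 none passed by limma, and 6 of the 38 had an unadjusted p under 0.05, beside 10.7% of all probe sets. The median log2 difference of the 38 was 0.21 in OE2, 0.050 in fls1-3 and 0.024 in OE1, beside 0.083, -0.0039 and 0.11 over all probe sets.

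Of the sugar-repressed and dark-induced genes, 9 of 31 were named in the table. ATL8, a RING-finger ubiquitin ligase gene, had signals of 7.03, 6.96 and 7.05 in Col-0, 7.93, 7.59 and 7.79 in OE1, 8.29, 8.32 and 8.80 in OE2 and 7.88, 7.77 and 7.69 in fls1-3. Every line was above Col-0 without overlap, and OE2 was above the other lines. Its rise in OE2 was 1.46 ± 0.20 on the log2 scale (SE, n = 3 against 3; limma adjusted p = 0.00524), a call kept whichever of the 12 arrays was left out. Its differences in OE1 and fls1-3 were 0.75 and 0.77 (limma adjusted p = 0.361 and 0.1). AT2G32150 read 11.76, 12.08 and 11.60 in Col-0 and 12.96, 13.15 and 13.13 in fls1-3, above all other arrays. It rose in fls1-3 by 1.27 ± 0.24 (limma adjusted p = 0.0264) but lost the call without any 1 of the Col-0 or fls1-3 arrays, with median centring, with only the groups compared and without the intensity trend, at adjusted p up to 0.124. The other genes of this list did not pass in any line, and the list's median difference was 0.066 in OE2, -0.15 in fls1-3 and -0.090 in OE1.

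Of the SnRK1 list, 3 of 23 genes were named. AKINBETA1, a regulatory subunit of the SnRK1 kinase, read 10.10, 10.25 and 9.98 in Col-0, 10.04, 10.28 and 10.03 in OE1, 11.08, 11.15 and 10.86 in OE2 and 10.55, 10.88 and 10.79 in fls1-3. The OE1 arrays lay with Col-0, and both other groups lay above. AKINBETA1 rose in OE2 by 0.92 ± 0.14 (limma adjusted p = 0.00973), and stood at 0.63 ± 0.14 in fls1-3 (limma adjusted p = 0.0578) and 0.0056 in OE1. The OE2 call was lost without OE2 replicate 1 or 2, with median centring and without the intensity trend, at limma adjusted p up to 0.179. BZIP53, a transcription factor gene acting with SnRK1 on proline dehydrogenase and asparagine synthetase genes, did not pass, at -0.059 in OE1, -0.21 in OE2 and 0.20 in fls1-3.

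Branched-chain amino acid breakdown was the best covered list, with 10 of 19 genes named. MCCA, a subunit of methylcrotonyl-CoA carboxylase in leucine breakdown, read 8.36, 8.96 and 8.83 in Col-0, 9.14, 9.21 and 9.43 in OE1, 9.85, 10.13 and 9.81 in OE2 and 9.50, 9.55 and 9.13 in fls1-3. Each line was above Col-0 without overlap. MCCA rose in OE2 by 1.21 ± 0.19 (limma adjusted p = 0.00973), and stood at 0.54 in OE1 and 0.68 in fls1-3 (limma adjusted p = 0.411 and 0.132). The OE2 call was lost without OE2 replicate 2 and with only the groups compared, at limma adjusted p up to 0.0632. The other 9 did not pass in any line. Of all 10, 9 had a positive difference in OE2 and in fls1-3 and 6 in OE1, with medians of 0.31, 0.093 and 0.11, beside 57.7%, 49.7% and 58.2% of all probe sets with a positive difference.

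Other amino acid genes gave 1 call, a fall. AT5G36160, a tyrosine aminotransferase gene, read 11.02, 11.07 and 10.81 in Col-0 and 9.93, 10.01 and 10.45 in fls1-3, with no overlap. It fell in fls1-3 by 0.84 ± 0.16 (limma adjusted p = 0.0249). The call was lost without Col-0 replicate 2 or fls1-3 replicate 1 or 2, with median centring, with only the groups compared, without the intensity trend and with a replicate block (0.0544), at limma adjusted p up to 0.213. Its difference was -0.57 in OE2 and -0.32 in OE1, neither past the threshold. The asparaginase gene ASPGB1 stood at 1.11 ± 0.46 in OE1 without passing (limma adjusted p = 0.45). None of the 3 named genes of methionine and sulphur amino acids passed. HMT-1, which makes methionine from homocysteine, stood at 2.005 ± 0.67 in OE2, 1.72 in fls1-3 and 1.38 in OE1 from a scattered Col-0 level of 6.03 ± 1.21 (SD, n = 3). The 1 named gene of proline metabolism beside the member, DELTA-OAT, an ornithine aminotransferase, stood between -0.25 and -0.12 in the 3 lines. No gene of the list of asparagine and glutamine synthesis and transport was named in the table.

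Starch breakdown and sugar-induced genes gave no call among 6 named genes. For DPE1, a plastid enzyme of starch breakdown, OE1 stood at 0.73, OE2 at 0.64 and fls1-3 at 0.11. The sugar-induced APL3, a subunit of ADP-glucose pyrophosphorylase in starch synthesis, stood at -0.64 ± 0.22 in OE2 (limma adjusted p = 0.264). EXO, a sugar-responsive growth gene, stood at 0.76, 1.20 and 1.12 in OE1, OE2 and fls1-3. Between the lines, limma called none of the 38 genes, while 8 had an unadjusted p under 0.05 for OE2 against OE1, 11 for fls1-3 against OE1 and 4 for fls1-3 against OE2, beside 8.43%, 15.7% and 5.44% of all probe sets. Past the adjusted threshold were 0.0264%, 0.554% and 0.022% of all probe sets in the same order.

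**Figure D4:**
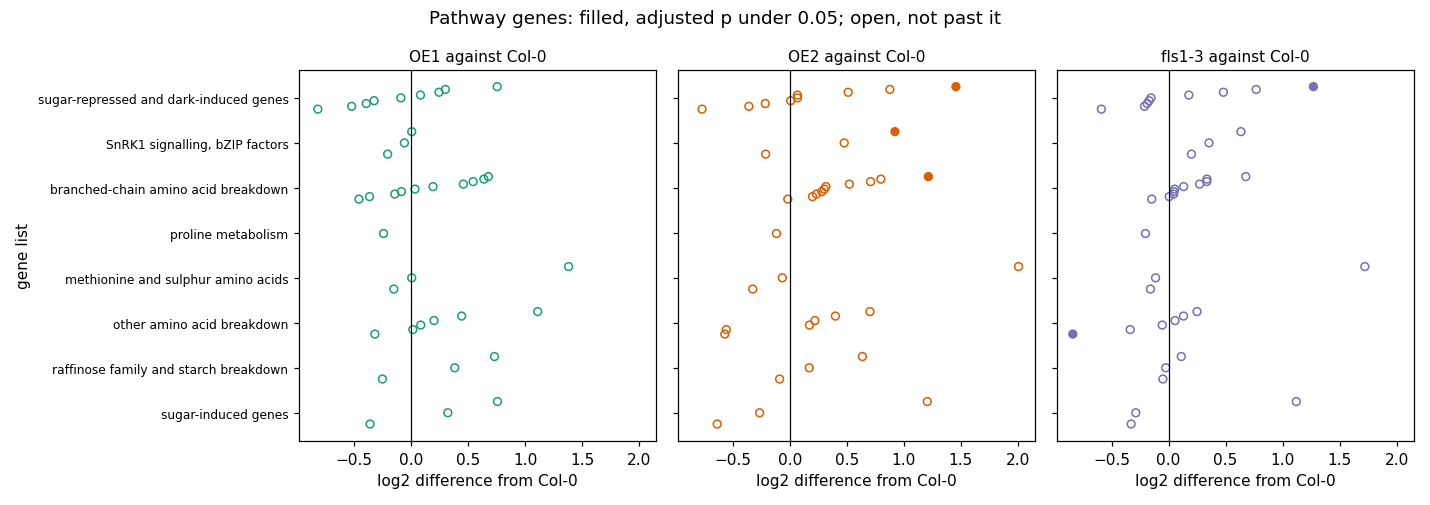
Log2 difference from Col-0 of the 38 named pathway genes in OE1, OE2 and fls1-3, 1 point per gene by list, filled where the limma adjusted p is under 0.05. The 3 filled points of OE2 lie at 0.92 to 1.46, fls1-3 has 1 at 1.27 and 1 at -0.84, and OE1 has none.

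Carbon starvation and leaf ageing share genes, so senescence markers were set beside the members. Of 16 senescence genes listed, 4 were named in the table. WRKY53 and AT5G20700, the brightest of the 4 in Col-0 at means of 10.94 and 11.17, weigh most in their summed signal. That sum was lower in each line than in Col-0, in OE1 only narrowly on its highest array. It ran from 11.99 to 12.49 on the log2 scale in Col-0, 11.15 to 11.985 in OE1, 11.01 to 11.37 in OE2 and 10.98 to 11.56 in fls1-3, and none of the 4 was at 0 on any array. WRKY53, a transcription factor gene of leaf ageing, fell by 2.14 ± 0.34 in OE2 and by 2.34 ± 0.34 in fls1-3 (limma adjusted p = 0.0113 and 0.00605). Of all probe sets, 0.989% and 1.2% were called in either direction in OE2 and fls1-3. The other 3, SAG101, AT5G20700 and WRKY6, passed in no line, and SAG101 and WRKY6 had higher means in fls1-3 than in Col-0, 8.53 against 7.83 and 8.37 against 7.71. The part of these genes in the members' levels was not tested.

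Among 5916 genes with 1 named gene per probe set and at least median signal, those most like the members were found by correlation with the mean standardised profile of the 6 over the 12 arrays. The 8 most alike were AT1G14330, MCCA, AT5G08350, AT4G25170, INO80, AT1G52720, AT1G61100 and AT2G15960, at r between 0.904 and 0.927. MCCA is also the list gene called in OE2 above. Both readings use the same arrays and members chosen on them, so its likeness adds no support to that call. INO80, a chromatin remodelling gene, ran only from 8.72 in Col-0 to 9.13 in OE2. AT1G52720 ran further, from a mean of 9.48 in Col-0 to 11.19 in OE2 and 11.66 in fls1-3. Without the OE1 arrays 3 of the 8 were again among the 8 most alike.

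Each member had its own closest genes. MGL was closest to MCCA (r = 0.952 over the 12 arrays) and AT1G75800 (0.942), and its deviations within groups also went with those of MCCA (0.898). AT5G38710 was closest to AT1G32460 and AT1G10090 (0.957 and 0.954), AT3G15450 to AT5G65660 and AT5G54300 (0.938 and 0.93) and AT3G15630 to AT1G26580 and AT3G25910 (0.954 and 0.94). The ASN1-listed row was closest to AT2G47440 and ZW9 (0.956 and 0.935), which followed it within groups as well (0.971 and 0.94), and the DIN10-listed row to AT5G16650 and AT5G14120 (0.942 and 0.94). No gene was named for more than 1 member.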

How the data were processed

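The deposited values are log2 signals with a floor of 0. The trimmed mean of the linear signal lies at about 500.05 on each array, so the authors had scaled all arrays to 1 target. MAS5 is named per the submitters' processing notes, without a version. Labelled cRNA was made from 6 µg of Trizol-extracted RNA, per the labels' protocols. Of 22810 probe sets, 64 controls were left out. Gene names come from the platform annotation (13513 probe sets name 1 gene, 503 several, 8730 none), with loci matched to TAIR10.1. Where a gene had several probe sets, the brightest stood for it.

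limma 3.58.1 in R 4.3.3 was fitted to all 12 arrays with 1 coefficient per group and an intensity trend (8 residual degrees of freedom), with Benjamini-Hochberg adjustment over 22746 probe sets and a two-sided threshold of 0.05. It was tested on simulated data. No 2 arrays held the same values. Separate plants are not stated, so a p-value covers the spread between the 3 arrays of a group, and the number of arrays limits the precision.

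The members, gene lists, naming rule and tests were chosen with earlier results of these data known. The 6 members were always named. List genes were named where they passed, or had the smallest p of their list in a line, and marker genes beside a result they touch. Likeness was Pearson r. Of 296 list genes, 8 whose symbol did not match their locus were left out. Alternatives were quantile normalization, median centring, pseudocounts of 16 and 64, leaving out probe sets below the 40th percentile of mean signal, only the groups compared, no trend, array weights, a replicate block and leaving out each array.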

Additional observations from a re-analysis of the deposited data

Results flagged for a closer look

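BZIP53, and D2HGDH, a hydroxyglutarate dehydrogenase gene of the branched-chain list, each had all 3 arrays of 1 line above and all 3 of another line below the Col-0 arrays, as did 0.629% of all probe sets. BZIP53 stood at -0.21 in OE2 and 0.20 in fls1-3, and D2HGDH at -0.36 in OE1 and 0.28 in OE2. None of these 4 values passed the threshold. The difference between the lines did not pass either, at a limma adjusted p of 0.684 for BZIP53 (unadjusted 0.0101) and 0.279 for D2HGDH (unadjusted 0.00339).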

How the results depend on the processing

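All 378 member differences from Col-0 recomputed under 21 alternatives kept their sign, but many of them could not change. Leaving out dim probe sets, fitting only the groups compared, dropping the trend or adding the replicate block leaves each difference as it was. So does leaving out an array of a group not compared. The members were also chosen by these differences, so the kept signs are a description. Counts past the threshold moved more, and for those below the cause was not tested. Without 1 array at a time, members past it numbered 0 to 1 in OE1, 3 to 6 in OE2 and 4 to 5 in fls1-3. Pathway genes numbered 1 to 4 in OE2, 0 to 2 in fls1-3 and 0 to 1 for OE2 and for fls1-3 against OE1. Probe sets numbered 0 to 22 in OE1, 66 to 303 in OE2, 103 to 369 in fls1-3, 4 to 19 for OE2 against OE1, 17 to 578 for fls1-3 against OE1 and 3 to 11 for fls1-3 against OE2. Quantile normalization gave 1 pathway gene and 10 probe sets for OE2 against OE1 and 1 pathway gene for fls1-3 against OE1. Median centring gave 3 members and 120 probe sets in OE2, 0 pathway genes and 156 probe sets in fls1-3 and 48 probe sets for fls1-3 against OE1. Either pseudocount gave 3 probe sets in OE1. Leaving out dim probe sets gave 4 pathway genes in fls1-3 and 245 probe sets for fls1-3 against OE1. With only the groups compared, which leaves fewer arrays, 1 probe set passed in OE1, 3 members and 109 probe sets in OE2, and 1 member, 0 pathway genes and 31 probe sets in fls1-3. The same setting gave 1 pathway gene and 89 probe sets for OE2 against OE1, 29 probe sets for fls1-3 against OE1 and 1 for fls1-3 against OE2. Without the trend, 3 members and 93 probe sets passed in OE2, 0 pathway genes and 103 probe sets in fls1-3, and 20 and 3 probe sets for fls1-3 against OE1 and OE2. Array weights gave 1 member and 22 probe sets in OE1, 5 pathway genes and 671 probe sets in OE2 and 7 and 1032 in fls1-3. Between lines they gave 3 and 532 for OE2 against OE1, 11 and 3783 for fls1-3 against OE1 and 117 probe sets for fls1-3 against OE2. These weights lean on single arrays. In fls1-3, replicate 2 had a weight of 4.17 against 0.49 for each other array. In OE1, replicate 3 had 2.47 against 0.65 and 0.69. The main fit did not pair arrays by replicate number. Of 18 correlations of same-numbered deviations, 5 were over 0.1 (range -0.72 to 0.747). No differently numbered arrays were set beside them, so this count cannot tell whether the numbers pair the arrays. The replicate block gave 4 members in OE2, 1 probe set in OE1, 1 pathway gene and 13 probe sets for OE2 against OE1 and 3 probe sets for fls1-3 against OE2. Of the genes most like the members, 3 of 8 were shared without the OE1 arrays. The scatter of low signals and the 3 arrays per group both limit precision.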
